A study of Mus musculus with 21 samples.

Results

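The 3 intact analogs of parathyroid hormone (PTH) in the series, hPTH(1-34), hPTH(1-31) and PTH(1-36), were pooled and compared with a second pool of the vehicle and the bovine fragments bPTH(3-34) and bPTH(7-34). Each pool held 9 arrays, 3 from each group, so that 18 of the 21 arrays entered the contrast. All 22180 genes named on the array were tested, 1 measurement per gene. The question was which small changes, of 1.15 to 1.5-fold, become measurable in pools of this size when 3 arrays against 3 leave them uncalled.

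The cells were osteoblasts released with collagenase and trypsin from the calvariae of C57BL/6J mouse pups aged 7 to 10 days. They were used at passage 2, differentiated from day 3 to day 10, and held without serum for 24 h. All groups were then treated for 4 h in serum-free medium with bovine serum albumin. The intact analogs and bPTH(3-34) were given at 100 nM, whereas bPTH(7-34), the D-Trp12,Tyr34 amide, was given at 1000 nM, so that its dose differed from the rest. hPTH(7-34), at 100 nM, belonged to neither pool and is described separately. The label of PTH(1-36) names no species. Each group had 3 biological replicates, prepared independently according to the labels, and 100 ng of total RNA per sample went to a whole-transcript array.

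PTH acts on osteoblasts through Pth1r, a receptor coupled to the stimulatory G protein that raises cyclic AMP, activates protein kinase A (PKA) and leads to phosphorylation of the transcription factor CREB. Binding sites of CREB are known as cyclic AMP response elements and lie in the promoters of many rapidly induced genes. The first residues of the hormone are needed to activate the receptor, and fragments that lack them can bind it with little or no activation.

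All values below are log2 signals after the RMA method, and every difference is on the log2 scale unless a fold is named. The arrays had medians of 3.49 to 3.61 over all 41345 transcript clusters, named or not, and correlations between arrays of a group were 0.990 to 0.993. The 22180 genes alone had a higher median signal, 4.42. Array signals carry no read depth, and the number of arrays limits the precision. Of 9 osteoblast markers, 8 lay above the median of the genes, with a mean level of 9.47 to 10.0 in the intact pool and 9.67 to 9.91 in the control pool. Macrophage and osteoclast markers were present too, with 25 of 29 above the median and mean levels of 7.69 to 7.91 with intact analogs and 7.82 to 8.0 in controls. Of these 29 markers, 0 were called higher (8.35% of all genes) and 3 (10.3%) lower, near the 11.1% of all genes called lower. Their part in the results was not tested. The mean level of the endothelial markers was 3.98 to 4.21 and that of the skeletal muscle markers 3.53 to 3.75 over both pools. Single markers could lie higher, with 5 of 17 endothelial and 3 of 18 muscle markers above the median. In whole cultures, fewer cells of a type and less RNA per cell cannot be told apart.

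The intact analogs shifted a large part of the transcriptome, and most of the shifts were small. At an adjusted p under 0.05 in limma, 4306 of 22180 genes (19.4%) were called: 1853 (8.35%) were higher and 2453 (11.1%) lower with intact analogs. The median difference over all genes was -0.01. Of the called genes, 668 differed by at least 1.5-fold and 220 by at least 2-fold. The large changes ran mostly upward, with 170 genes over 2-fold higher and 50 lower. Between 1.15-fold and 1.5-fold the order was the other way, with 1236 genes higher and 1804 lower. A further 598 called genes differed by under 1.15-fold. In 1450 genes (6.54%) all 9 intact arrays lay beyond all 9 control arrays, and 1449 of these were called.

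**Figure D1:**
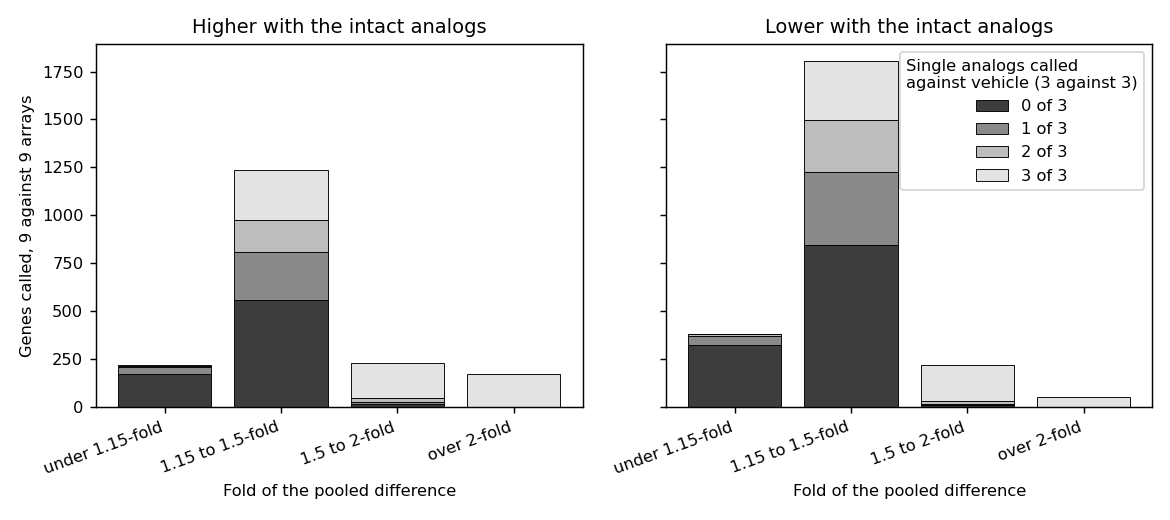
Genes called in the pooled comparison, grouped by the size of the difference (fold) on the x axis, with the number of genes higher or lower with intact analogs on the y axis. Shading gives how many of the 3 comparisons of 1 analog with vehicle called the gene. The 1.15 to 1.5-fold class is the tallest, with 3040 genes.

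At the ends of the ranking the pools lay far apart. Vdr, the vitamin D receptor, lay at 10.67, 11 and 11.14 (lowest, median and highest array) in the intact pool and at 6.88, 7.12 and 7.24 in the control pool, 14.5-fold higher (adjusted p = 1.88e-18). The triacylglycerol synthesis enzyme Dgat1 was 14.3-fold higher, with intact arrays at 9.64 to 9.81 and controls at 5.63 to 6.09. Bmp4, a bone morphogenetic protein, was 3.83-fold lower (6.82 to 7.45 against 8.98 to 9.36). Lgr5, a receptor for R-spondins that enhances Wnt signalling, was 3.68-fold lower. The pools did not overlap for any of these 4 genes.

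Against vehicle alone, hPTH(1-34) called 1917 genes (8.64%), hPTH(1-31) 1930 (8.70%) and PTH(1-36) 1603 (7.23%). These 3 comparisons share the vehicle arrays with each other and with the pooled contrast. Together they called 2603 genes, of which the pooled contrast did not call 223. All 3 called 1171 genes, of which the pooled contrast called 1168. Conversely, 1926 called genes (44.7%) were called in none of the 3. The 95% interval around a pooled difference extended by a median of 0.17 to each side, against 0.30 for 3 arrays against 3. bPTH(3-34) and bPTH(7-34) each called 0 genes (0%) against vehicle by limma. At an unadjusted p under 0.05, bPTH(3-34) had 1313 genes and bPTH(7-34) had 1151, and the smallest adjusted p-values were 0.446 and 0.272. A test for any difference among the 3 control groups called 0 genes (0%), with a smallest adjusted p of 0.322.

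The small changes proper were the 1406 genes called in the pooled contrast, changed by 1.15 to 1.5-fold, and called in no comparison of an intact analog with vehicle. They comprised 560 higher (2.52% of all genes) and 846 lower (3.81%), with a median fold of 1.21. In 1329 of them (94.5%) the 3 intact group means lay on one side of the 3 control group means, as they did in 32.6% of all genes. All 9 intact arrays lay beyond all 9 control arrays in 75. The genes in this class were chosen by being called, so that these shares describe them and test nothing.

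The 15 small increases with the smallest adjusted p changed by 1.21-fold to 1.45-fold. Plk2, a polo-like kinase that is transcribed early after stimulation, lay at 7.76, 7.85 and 8.02 with intact analogs and at 7.33, 7.56 and 7.69 in controls. The pools did not overlap, and the difference was 0.32 (SE 0.05, adjusted p = 9.99e-05, 1.25-fold). Tomm70a, a receptor for protein import in the outer mitochondrial membrane, was at 8.18, 8.32 and 8.44 against 7.87, 8.0 and 8.13. Again no array of one pool reached the other (1.22-fold, adjusted p = 0.000323). Tgs1, which hypermethylates the caps of small nuclear and nucleolar RNAs, was at 7.18, 7.32 and 7.5 against 6.84, 7.01 and 7.18. Its pools met at a single value (1.24-fold, adjusted p = 0.00026).

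Nop9 and Utp25, which serve the processing of the small ribosomal subunit's RNA, were 1.34-fold and 1.35-fold higher. Nop9 was at 6.59, 6.85 and 7.10 against 6.28, 6.35 and 6.74, and Utp25 at 5.84, 6.24 and 6.56 against 5.61, 5.82 and 5.96. Both pools overlapped for each gene. Nfyb, a subunit of the factor that binds CCAAT boxes, was 1.33-fold higher. Dgka, a kinase that turns diacylglycerol into phosphatidic acid, was 1.32-fold higher, and Nabp1, a single-stranded DNA binding protein, 1.35-fold higher. Intact and control arrays did not overlap for Nabp1 (6.85 to 7.31 against 6.40 to 6.72) or for Ier5l, an immediate early response gene family member (6.5 to 6.80 against 5.86 to 6.44, 1.28-fold). The other 6 of the 15 were Prima1 (1.45-fold), Pvr (1.34-fold), Zfp27 (1.31-fold), Sestd1 and Zfp330 (each 1.29-fold), and Tatdn2 (1.21-fold). Prima1 anchors acetylcholinesterase in membranes, and Pvr is a cell adhesion receptor.

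The 15 small decreases with the smallest adjusted p changed by 1.2-fold to 1.42-fold. Eif4ebp1, which binds and blocks the cap-binding protein eIF4E, was at 7.67, 7.75 and 7.93 with intact analogs and at 7.89, 8.17 and 8.27 in controls. The pools overlapped slightly, and the difference was -0.34 (SE 0.05, adjusted p = 0.000109, 1.27-fold). Fas, the death receptor, was at 6.60, 6.76 and 6.91 against 6.97, 7.05 and 7.34, with no overlap (1.26-fold lower, adjusted p = 0.00023). Exoc4, a subunit of the exocyst, was at 8.69, 8.82 and 8.93 against 8.98, 9.05 and 9.25. Its pools did not overlap either, at a change of only 1.2-fold (adjusted p = 0.000273). Arhgef11, a guanine nucleotide exchange factor for RhoA, was at 6.95, 7.01 and 7.11 against 7.20, 7.26 and 7.40, and again no arrays overlapped (1.2-fold lower). Ppp1r21 was the fourth of the 15 lower genes without overlap (6.69 to 6.98 against 7.06 to 7.26, 1.21-fold).

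Klf6, a Kruppel-like transcription factor, was 1.26-fold lower, and Cd2ap, an adaptor between membrane receptors and actin, 1.23-fold lower. Ofd1, a protein of centrioles and the base of the cilium, was 1.42-fold lower (4.44, 4.68 and 4.95 against 4.92, 5.24 and 5.49). Its pools overlapped between 4.92 and 4.95. Dock11, an exchange factor for Cdc42, was 1.24-fold lower, Ldah, a hydrolase of lipid droplets, 1.22-fold lower, and Bicra, a subunit of a chromatin remodelling complex, 1.29-fold lower. Zfhx4, Prxl2c, Kansl1l and Krcc1 completed the 15, at 1.32-fold, 1.34-fold, 1.39-fold and 1.25-fold lower.

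**Figure D2:**
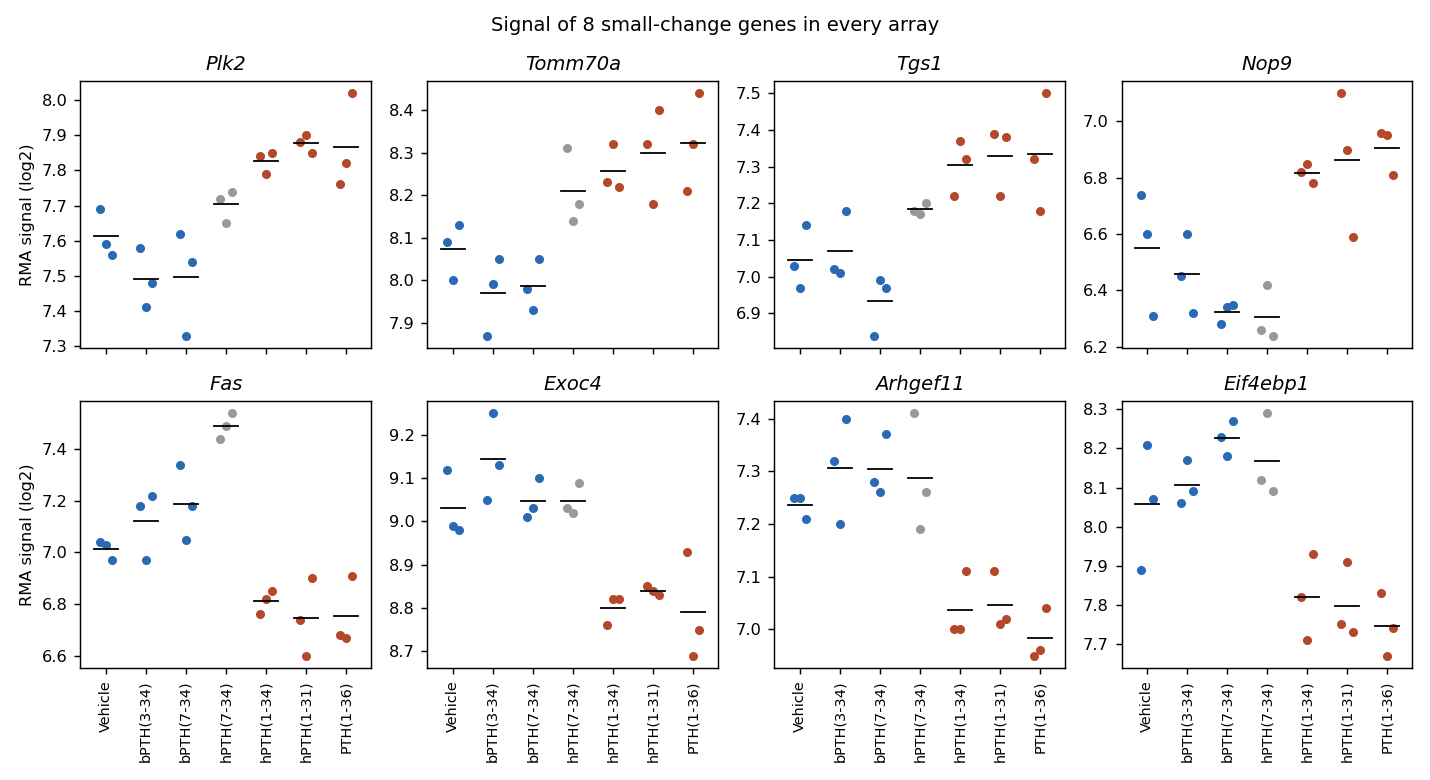
Log2 signal (y axis) of 8 genes of the small-change class in each of the 21 arrays, by treatment group (x axis), with group means as short lines. Plk2 and Tomm70a lie higher in all 9 intact arrays than in all 9 control arrays, and Fas, Exoc4 and Arhgef11 lower. hPTH(7-34), in grey, belongs to neither pool, and the 8 genes were picked after their values were seen.

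The choice of these genes bears on where vehicle lies. Since they were not called against vehicle, the choice favours genes whose vehicle level lies nearer the intact groups than the bovine fragments do. For the small increases, the median difference was 0.25 against vehicle, 0.30 against bPTH(3-34) and 0.31 against bPTH(7-34). For the small decreases it was -0.25, -0.30 and -0.27. With vehicle as the only control, 2647 genes were called in all, and 242 of the 1406 small changes were among them, and the small-change class itself held 307 genes. With the bovine fragments alone as controls, 3797 were called, including 1136 of the small changes. Of the 30 named small changes, 15 were no longer called with vehicle alone: Ier5l, Nfyb, Sestd1, Utp25, Zfp330, Pvr and Zfp27 among the increases, and Fas, Bicra, Prxl2c, Cd2ap, Dock11, Ldah, Kansl1l and Krcc1 among the decreases. Plk2, Tomm70a, Nop9, Tgs1, Exoc4, Arhgef11, Klf6, Eif4ebp1 and Ofd1 were still called.

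Changes of 1.15 to 1.5-fold were also read in arrays that had no part in choosing them. The genes were chosen by call and size alone, without the condition that no single analog called them. They are therefore not the small-change class described above. Their shares cannot show how changes missed by 3 arrays against 3 behave by themselves. First, 2092 genes were called with changes of 1.15 to 1.5-fold in hPTH(1-34) and PTH(1-36) against both bovine fragments. In hPTH(1-31) against vehicle, arrays not used in that choice, 95.8% of them had the same sign, against 66.5% of all genes. Their median was 0.36 where chosen and 0.35 where read for the increases, and -0.35 and -0.32 for the decreases. Of the 2092, 283 (13.5%) were called with the same sign at 3 arrays against 3 and 0 with the other sign, where 4.18% of all genes were called. Second, 1750 genes were chosen in hPTH(1-31) and PTH(1-36) against vehicle and bPTH(7-34), and read in hPTH(1-34) against bPTH(3-34). Here 96.7% had the same sign, against 65.4% of all genes, and 422 (24.1%) were called with the same sign and 0 with the other, against 5.49% of all genes. The medians were 0.38 where chosen and 0.31 where read for increases, and -0.37 and -0.38 for decreases.

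**Figure D3:**
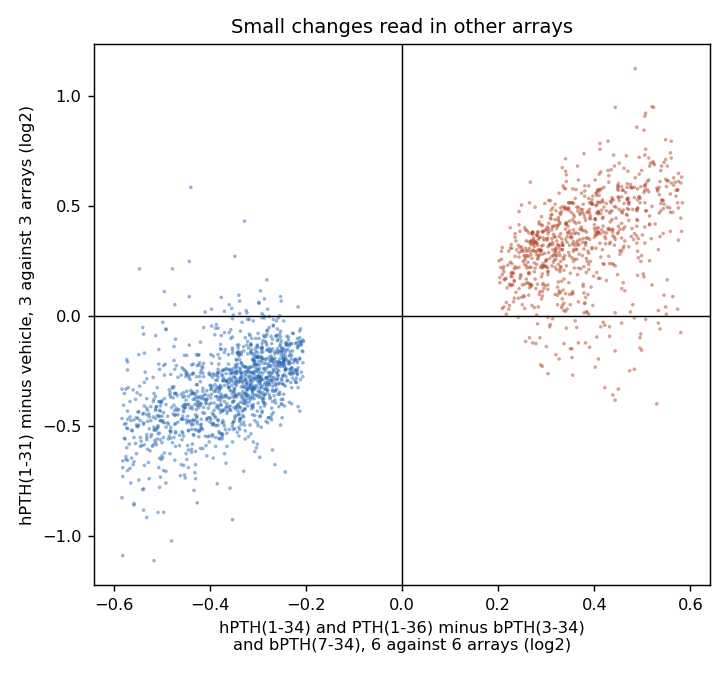
Genes called with changes of 1.15 to 1.5-fold in hPTH(1-34) and PTH(1-36) against the bovine fragments (x axis, log2 difference), 1 point per gene. They were read in hPTH(1-31) against vehicle (y axis, log2 difference). The choice did not exclude genes called in a single analog, so these are not the small-change class. The arrays of both axes differ, and 95.8% of the 2092 genes fall on the same side of 0.

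Gene groups were then described by how many of their measured members were called in each direction, beside 8.35% higher and 11.1% lower among all genes. Genes with higher signal were called more often. Of genes with a promoter sequence and a signal above the median of all genes, 1256 were called higher, 1809 lower and 5742 not at all. All lists but some of the cell type markers had a median signal above the 4.42 of all genes. The shares of all genes are therefore a low background for them, and no share matched for signal is given. The lists were drawn up with earlier results of these data known, so their counts are a description. Genes of cyclic AMP and CREB early response (24 of 36 higher, median 0.56) and of inflammatory cytokines and NF-kappaB (28 of 53 higher, median 0.30) had the highest medians of these lists. Targets and regulators of YAP and TEAD (19 of 35 lower, median -0.21), mitosis (22 of 53 lower, median -0.15) and microtubules and cilia (24 of 60 lower, median -0.13) had the lowest. Counts against 1 control group alone, given below where they differ, are read beside the share of all genes called with that control: 5.45% higher and 6.49% lower for vehicle, 5.33% and 7.23% for bPTH(3-34), and 5.49% and 5.54% for bPTH(7-34).

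**Figure D4:**
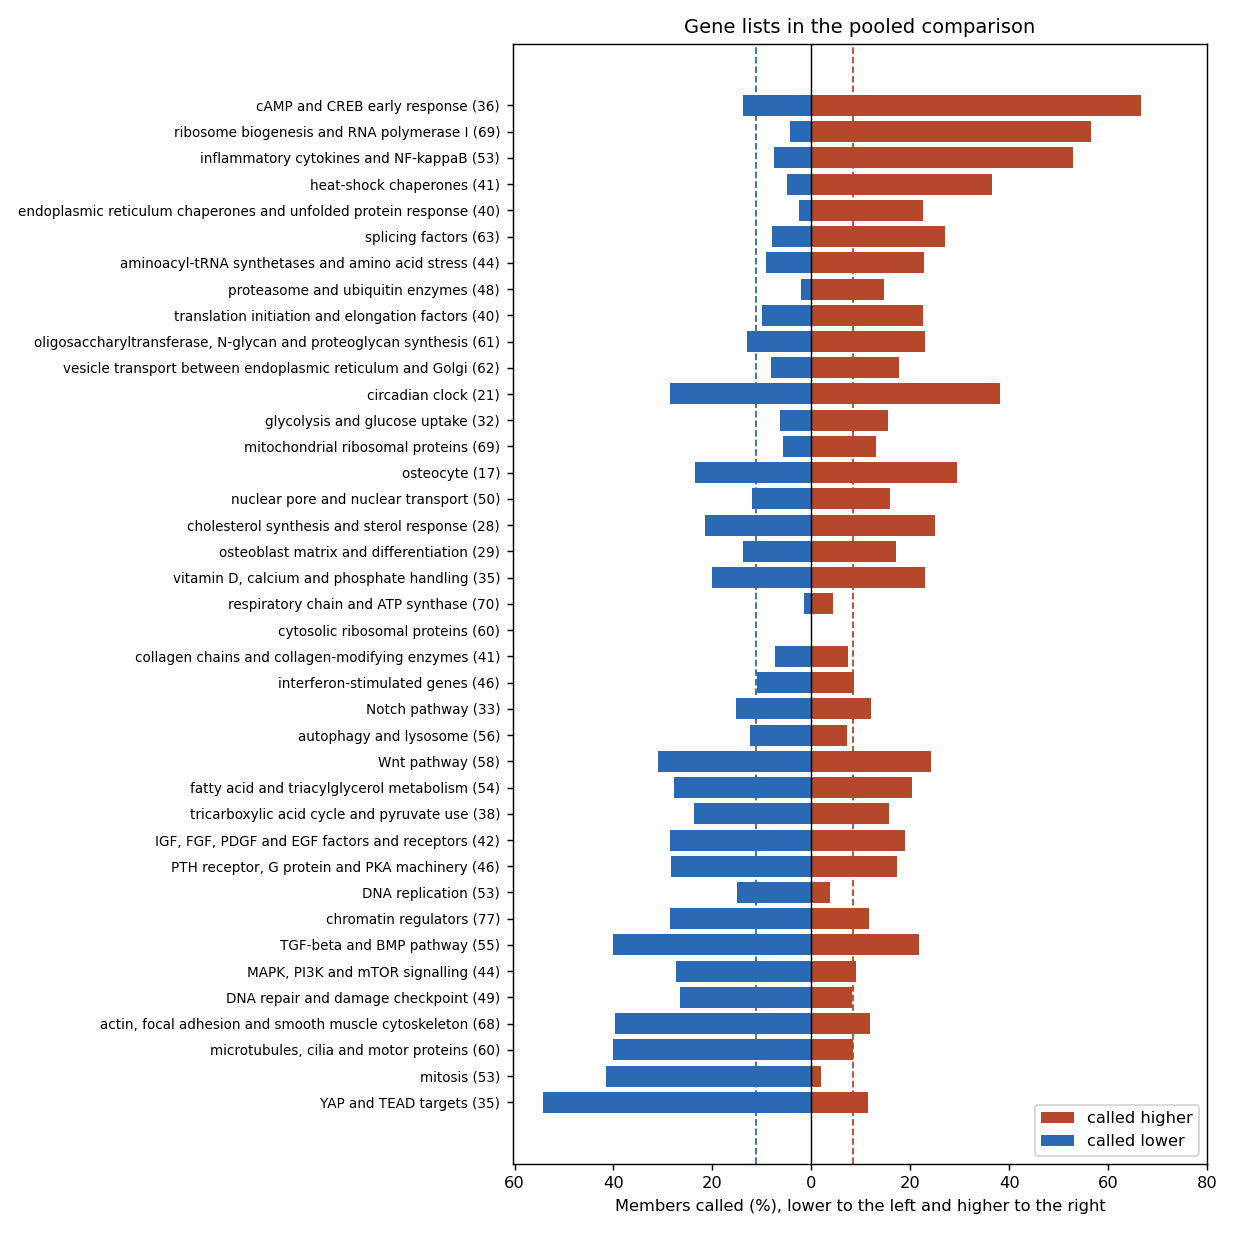
Percent of the measured members of each gene list called higher or lower in the pooled comparison (x axis, percent, lower to the left and higher to the right), 1 bar per list with its number of measured members in brackets. Dashed lines mark the percent of all genes called higher (8.35) and lower (11.1).

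Of 69 measured factors for making ribosomes and for RNA polymerase I, 39 were called higher, 3 lower and 27 not at all, with a median difference of 0.24. Of the 39, 10 belonged to the small changes. Rrp1b, a nucleolar protein, lay at 6.00, 6.09 and 6.31 with intact analogs and at 4.97, 5.37 and 5.57 in controls, a 1.72-fold increase with no overlap (adjusted p = 7.75e-08). Nol10 was 1.66-fold higher, at 6.92 to 7.35 against 6.29 to 6.52. Bysl and Wdr43, both needed for the small subunit, were 1.49-fold and 1.42-fold higher, again without overlap. Against vehicle alone 30 of the 69 were higher (5.45% of all genes), against bPTH(3-34) alone 25 (5.33%) and against bPTH(7-34) alone 27 (5.49%). In the pooled contrast, 0 of 60 cytosolic ribosomal proteins were called in either direction, and their median was -0.01.

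The list reached into the polymerase itself, as seen in members picked after their values were seen. Polr1a and Polr1b, the subunits of the polymerase's catalytic core, were 1.26-fold and 1.29-fold higher. Rrn3, which brings the polymerase to the ribosomal DNA promoter, lay at 7.84, 7.99 and 8.17 against 7.42, 7.80 and 7.81, a 1.23-fold increase without overlap. Ppan was 1.56-fold and Rrs1 1.5-fold higher, and Wdr75 1.23-fold higher, the last with no overlap between pools although no single analog called it. The 3 lower members were Myc, a transcription factor that drives ribosome production (6.34, 6.58 and 6.75 against 6.66, 6.86 and 7.30, 1.30-fold lower), Ubtf, which activates ribosomal DNA (1.24-fold lower, without overlap), and Taf1b, of the promoter selectivity factor (1.16-fold lower). Npm1 and Ncl, abundant nucleolar proteins, had differences of -0.07 and 0.02 and were not called.

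**Figure D5:**
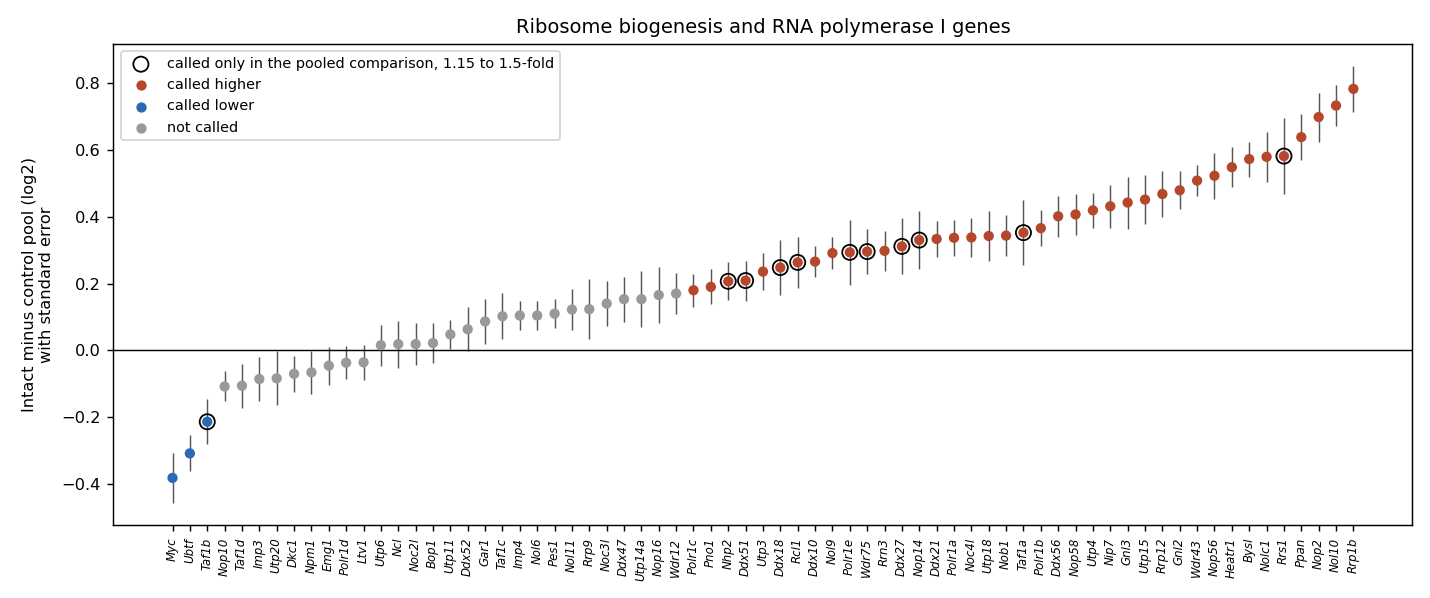
Pooled difference (log2, intact minus control, y axis) of each of the 69 measured members of the ribosome biogenesis list, in order of size (x axis), with standard errors as bars. Open circles mark members of the small-change class. Most members lie above 0, with Rrp1b highest and Myc lowest.

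Of 40 translation factors measured, 9 were called higher and 4 lower, the latter near the 11.1% of all genes, with a median difference of 0.015. Eif4e, the cap-binding protein that Eif4ebp1 blocks, lay at 9.20, 9.38 and 9.48 against 8.36, 8.54 and 8.82, 1.76-fold higher without overlap. Etf1, the release factor that ends translation, was 1.41-fold higher, and Eif2b1, a subunit of the exchange factor for eIF2, 1.33-fold higher. Eef2k, the kinase that inhibits elongation factor 2, was 1.56-fold lower (6.11 to 6.45 against 6.77 to 7.13, no overlap). Against vehicle alone, 8 factors were higher and 1 lower.

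Transcripts of protein-folding genes rose in part, and protein folding itself was not measured. Of 41 heat-shock chaperones 15 were higher and 2 lower. Hsph1, a nucleotide exchange factor for Hsp70, lay at 9.17, 9.39 and 9.55 against 7.49, 7.66 and 7.89, 3.22-fold higher. Hspa2, an Hsp70, and Dnaja2, an Hsp40, were 1.84-fold and 1.69-fold higher, and the mitochondrial Hsp70 Hspa9 1.40-fold higher. None of these 4 overlapped between pools. Hspa1a, the stress-inducible Hsp70, moved the other way, 1.38-fold lower with no single call, a member picked after its values were seen. In the endoplasmic reticulum 9 of 40 chaperones and stress genes were higher and 1 lower. Xbp1, the transcription factor of the unfolded protein response, was at 9.02, 9.10 and 9.24 against 8.57, 8.67 and 8.79 (1.35-fold), and Hspa5, its classical target BiP, at 8.61, 8.70 and 8.75 against 8.32, 8.45 and 8.56 (1.18-fold). Neither gene's pools overlapped, and Hspa5 was called by 1 of the 3 single analogs only. Hyou1 and Txndc11 were 1.2-fold and 1.45-fold higher. Of 48 proteasome and ubiquitin genes, 7 were higher and 1 lower, with differences of at most 0.24 upward. The proteasome ATPase Psmc5 (1.16-fold) and the lid subunit Psmd12 (1.17-fold) were called by no single analog, and the activator Psme3 was 1.17-fold higher. The ubiquitin-conjugating enzyme Ube2d1 was 1.25-fold lower. Against vehicle alone, 3 genes of this list were higher and 1 lower.

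Of 63 splicing factors 17 were higher and 5 lower, and 10 of these 22 belonged to the small changes. Tra2a, a splicing activator, lay at 7.69, 7.85 and 8.08 against 7.23, 7.37 and 7.49 (1.44-fold, no overlap). Sf3b1, a core part of the U2 particle, was 1.33-fold and Srsf5, an SR protein, 1.41-fold higher, whereas Srpk2, a kinase of SR proteins, was 1.38-fold lower (7.31 to 7.60 against 7.75 to 8.02). With vehicle as the only control, 10 splicing factors were higher and 2 lower, and with bPTH(3-34) as the only control 7 were higher and 7 lower. When only genes above the median signal were tested, 19 were higher and 13 lower. In that setting 1920 genes in all were called higher and 2836 lower among fewer genes tested. The shares of 8.35% and 11.1% are therefore too low a background for it. Of 50 nuclear pore and transport genes 8 were higher and 6 lower, and against vehicle alone 4 were higher and 1 lower. Nup98, of the pore, was 1.47-fold, the import adaptor Kpna1 1.48-fold and the pore's filament protein Ranbp2 1.28-fold higher, and the import receptor Tnpo2 1.27-fold lower.

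Chromatin regulators fell more often than they rose, 22 against 9 of 77 (median -0.08). Smarca2, an ATPase of the SWI/SNF remodelling complex, lay at 8.93, 9.05 and 9.09 against 9.33, 9.44 and 9.52, 1.32-fold lower without overlap. Arid5b, part of a histone demethylase complex, was 1.38-fold and the coactivator Ncoa2 1.33-fold lower. Hdac4, a histone deacetylase that PKA signalling regulates, was 2.11-fold higher (7.93, 7.99 and 8.24 against 6.78, 6.95 and 7.25). With vehicle as the only control the counts were 4 higher and 16 lower.

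Cilium and microtubule genes were called lower more often than higher, 24 against 5 of 60. Ift81, of the intraflagellar transport machinery that builds cilia, lay at 3.84, 4.13 and 4.29 with intact analogs and at 4.62, 4.79 and 5.07 in controls (1.66-fold lower, adjusted p = 4.86e-07). Rpgrip1l, of the cilium's transition zone, lay at 5.49, 5.63 and 5.94 against 6.18, 6.41 and 6.54 (1.61-fold lower). No arrays overlapped for either gene. The microtubule genes Clasp2, which stabilizes plus ends, and Tubb3, a beta-tubulin, ran the other way, 2.30-fold and 2.39-fold higher. Tubb3 lay at 6.08, 6.74 and 7.04 against 5.08, 5.41 and 5.83. Against vehicle alone 20 members were lower (6.49% of all genes), against bPTH(3-34) alone 17 (7.23%) and against bPTH(7-34) alone 16 (5.54%).

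Targets and regulators of YAP and TEAD, which report on cell tension and contact, held 19 lower and 4 higher of 35. Ccn1, a secreted matricellular protein, lay at 9.03, 9.19 and 9.28 against 9.89, 10.03 and 10.27, 1.82-fold lower without overlap. The angiomotins Amot and Amotl2, which hold YAP in the cytoplasm, were 1.85-fold and 1.62-fold lower, and the Arf regulator Asap1 1.68-fold lower. In the actin and adhesion list, 27 of 68 were lower and 8 higher, with a median of -0.11. Its 4 smallest adjusted p-values all belonged to increases: Cnn1, calponin of smooth muscle (10.44, 10.75 and 10.91 against 8.54, 8.73 and 8.79, 4.08-fold), Synpo2 (3.92-fold), the filament elongation factor Enah (1.79-fold) and the motor Myo1e (1.57-fold). With vehicle alone as the control 14 of its members were lower.

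Of 53 mitosis genes measured, 22 were called lower, 1 higher and 30 not at all. Of the 22, 8 belonged to the small-change class. Anln, anillin of the cleavage furrow, lay at 7.08, 7.24 and 7.42 against 7.53, 7.64 and 7.78, 1.33-fold lower without overlap (adjusted p = 3.66e-06). Kif23, a kinesin of the central spindle, was 1.29-fold lower and Cdc20, an activator of the anaphase-promoting complex, 1.2-fold lower. Cenpa, the centromere's histone, was the single member called higher (6.10, 6.32 and 6.47 against 5.78, 5.93 and 6.22, 1.32-fold). The count depended on the control. Against vehicle alone 8 were lower, where 6.49% of all genes were, against bPTH(3-34) alone 17 (7.23% of all genes) and against bPTH(7-34) alone 2 (5.54% of all genes), the last no more than the background.

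In DNA replication 8 of 53 were lower and 2 higher, and against vehicle alone 5 were lower and 1 higher. In DNA repair 13 of 49 were lower and 4 higher, and against vehicle alone 4 were lower and 0 higher. Sesn1, a stress-induced regulator of mTOR signalling, was 1.56-fold lower, Rad50, of the complex that senses double-strand breaks, 1.39-fold lower and the mismatch repair gene Msh3 1.44-fold lower, all 3 without overlap. Cdkn1a, the cell cycle inhibitor p21, was among the small increases (10.97, 11.28 and 11.39 against 10.70, 10.90 and 11.08, 1.27-fold), and its pools overlapped.

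The receptor and its signalling genes moved in both directions. Pth1r itself lay at 5.89, 6.11 and 6.40 with intact analogs and at 6.99, 7.12 and 7.32 in controls, 2.00-fold lower without overlap (adjusted p = 3.94e-09). Ramp3, a receptor activity-modifying protein, was 4.08-fold higher (5.98 to 6.33 against 3.68 to 4.44), and Sik3, a salt-inducible kinase that PKA inhibits, 1.76-fold higher. Of 46 genes of the receptor, G protein and PKA machinery 8 were higher and 13 lower, and with vehicle alone as the control 8 were lower. Among 44 genes of MAPK, PI3K and mTOR signalling 4 were higher and 12 lower. Irs1, the insulin receptor substrate, lay at 7.63, 7.74 and 7.93 against 8.92, 9.0 and 9.22, 2.41-fold lower. Pik3r1, the regulatory subunit of PI3-kinase, was 1.57-fold lower, and Map2k1, the kinase MEK1, 1.57-fold higher. The 4 increases became 2 without hPTH(1-34) replicate 2, and also 2 without bPTH(3-34) replicate 3.

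The bone genes most often measured under PTH divided into called and uncalled. Tnfrsf11b, the decoy receptor osteoprotegerin, was 2.50-fold lower (5.07, 5.26 and 5.66 against 6.15, 6.63 and 6.88), and Sp7, the transcription factor osterix, 1.51-fold lower. Alpl, alkaline phosphatase, was 1.40-fold higher (9.10, 9.39 and 9.67 against 8.75, 8.92 and 9.03), Fos 1.60-fold, Wnt4 1.63-fold, Ptgs2, the inducible cyclooxygenase, 1.93-fold and Rgs2, a brake on G proteins, 1.27-fold. Rgs2 lost its call when all array measurements of a gene were averaged. Even with 9 arrays a side, the collagen genes Col1a1 and Col1a2 were not called, with differences of -0.02 each and 95% intervals of -0.10 to 0.05. Mmp13 (0.05, -0.08 to 0.17), Igf1 (0.09, -0.01 to 0.19) and Atf4 (0.02, -0.10 to 0.14) were not called either. All 5 of these intervals lie within a change of 1.15-fold either way. Sost (0.07, -0.14 to 0.28), Dkk1 (-0.02, -0.25 to 0.21) and Bglap (-0.30, -0.59 to -0.01, adjusted p = 0.156) were uncalled with wider intervals. Ibsp ran from 5.47 to 9.25 within the intact pool, so that its interval of -0.79 to 0.63 holds changes of 1.5-fold either way.

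Of 21 circadian clock genes 8 were higher and 6 lower. Arntl, the positive arm of the clock, lay at 7.5, 7.58 and 7.63 against 6.47, 6.67 and 6.88, 1.87-fold higher, and Nfil3 and Bhlhe40, transcriptional repressors, were 2.37-fold and 1.75-fold higher. Per3, of the negative arm, was 1.80-fold lower (4.66 to 5.26 against 5.64 to 6.11). None of these 4 overlapped between pools.

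Promoter sequences of the called genes were searched for binding motifs. Among the 16918 genes with a RefSeq promoter of GRCm38.p6 (300 bases: 250 before and 50 after the start), the full cyclic AMP response element TGACGTCA, which reads the same on both strands, stood in 2.64%. It stood in 5.63% of genes called higher, 1.89% of genes called lower, 4.99% of the small increases and 2.53% of the small decreases, and in 7.63% of those called over 2-fold higher. The shorter TGACG, searched on both strands and contained in the full element, was in 26.9% of all, 42.3% of genes higher, 30.0% of genes lower, 40.1% of small increases and 29.7% of small decreases. In the ribosome biogenesis list, 29 of 60 genes with a promoter (48.3%) held it, and 21 of the 36 called higher (58.3%). The full element stood in only 3 of these 60 (5%), Ppan, Noc4l and Ddx51, all among the 36 called higher (8.33%). Over all 32851 promoters of the table, 1.79% held the full and 20.8% the shorter element. Called genes had more G and C than others (60.4% in genes higher, 61.8% in genes lower, 56.1% in all). Among genes above the median signal, the full element stood in 5.65% of genes higher, 1.99% of genes lower and 3.55% of uncalled genes, and the shorter in 44.8%, 30.7% and 35%. Another motif, the E-box CACGTG bound by factors such as Myc, was added after the data had been seen, and stood in 12.0% of genes higher, 12.1% of genes lower and 9.22% of all. Among genes above the median signal the shares were 13%, 12.4% and, in uncalled genes, 11.4%.

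The following 7 windows show the element, in capitals, with 20 bases on each side, 5′ to 3′ on the gene's own strand and upstream of its start. They were picked after the values were seen, to set a small increase beside larger ones and beside ribosome biogenesis genes, and all 7 genes were called higher. The small decrease Ldah holds the element too, so close to its start that the window would cross it, and Ldah is therefore not printed.
Plk2: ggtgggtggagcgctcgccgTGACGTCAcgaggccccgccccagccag
Ppan: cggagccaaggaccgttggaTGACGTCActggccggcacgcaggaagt
Noc4l: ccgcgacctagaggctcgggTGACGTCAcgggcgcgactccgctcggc
Tra2a: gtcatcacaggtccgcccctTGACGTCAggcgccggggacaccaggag
Clasp2: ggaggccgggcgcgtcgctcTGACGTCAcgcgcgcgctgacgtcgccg
Cycs: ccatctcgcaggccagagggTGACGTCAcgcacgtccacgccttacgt
Has1: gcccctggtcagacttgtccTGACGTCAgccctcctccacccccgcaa

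They lie at chr13:110394962-110395009 on the plus strand for Plk2, chr9:20888120-20888167 plus for Ppan, chr5:110653387-110653434 minus for Noc4l, chr6:49264052-49264099 minus for Tra2a, chr9:113741422-113741469 plus for Clasp2, chr6:50566711-50566758 minus for Cycs and chr17:17855244-17855291 minus for Has1. The window of Noc4l is shared with Ddx51, which is read from the other strand. Both genes serve ribosome production, and both were higher: Noc4l at 6.13, 6.28 and 6.43 against 5.66, 5.95 and 6.11 (1.26-fold, no overlap), and Ddx51 at 5.77, 5.87 and 6.10 against 5.39, 5.66 and 5.96 (1.16-fold, a small change). Cycs, cytochrome c, was 1.35-fold higher (8.95 to 9.45 against 8.50 to 8.93). A motif match is a description of the sequence and not a binding site.

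The compounds at the matched dose of 100 nM and time of 4 h were then compared with each other in 6 pairs, with p-values adjusted over genes and pairs together. hPTH(1-31), which ends 3 residues before hPTH(1-34), differed from it in 30 genes (0.135%; 14 higher and 16 lower). PTH(1-36) differed from hPTH(1-34) in 68 (0.307%; 41 higher and 27 lower) and from hPTH(1-31) in 45 (0.203%; 26 higher and 19 lower). bPTH(3-34), which lacks the first residues, differed from hPTH(1-34) in 1586 genes (7.15%), from hPTH(1-31) in 1555 (7.01%) and from PTH(1-36) in 1305 (5.88%). The 95% interval of a pairwise difference extended by a median of 0.30 to each side, so that differences between intact analogs in the range of the small changes were mostly not detectable with 3 arrays each. The counts between intact analogs depended on single arrays. The first was 48 without hPTH(1-31) replicate 3, the second 38 without hPTH(1-34) replicate 2 and 44 without bPTH(3-34) replicate 1, and the last 70 without PTH(1-36) replicate 1. Of the 1406 small changes, 2 were called between any intact analogs, as were 134 of all 22180 genes. A test for any difference among the 3 intact analogs, adjusted over genes, called 2 genes (0.00902%), Map2k6 and Prg4.

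Prg4, the lubricin of joint surfaces, rose with all 3 analogs and by different amounts. It was at 8.43, 8.28 and 8.15 with hPTH(1-34), at 7.93, 8.04 and 7.95 with hPTH(1-31) and at 7.66, 7.16 and 7.01 with PTH(1-36), against 5.58 to 6.06 in controls. PTH(1-36) was lower than hPTH(1-34) by a difference of -1.01 (95% interval -1.29 to -0.73, adjusted p = 8.87e-05) and than hPTH(1-31) by -0.70 (-0.98 to -0.41, adjusted p = 0.00398). No array of PTH(1-36) reached either of the other groups. Cxcl14, a chemokine, followed a like order, at 10.82, 10.85 and 10.44 with hPTH(1-34), at 10.31, 10.51 and 10.43 with hPTH(1-31) and at 10.17, 10.06 and 9.60 with PTH(1-36). PTH(1-36) minus hPTH(1-34) was -0.76 (-1.04 to -0.48, adjusted p = 0.00157). Controls were at 7.92 to 8.19.

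Map2k6, the kinase MKK6 upstream of p38, fell with all 3 and fell most with hPTH(1-31). It was at 4.10, 3.82 and 4.01 with hPTH(1-31), at 4.6, 4.68 and 4.53 with hPTH(1-34) and at 4.58, 4.84 and 5.01 with PTH(1-36), against 5.43 to 5.97 in controls. hPTH(1-31) differed from hPTH(1-34) by -0.63 (-0.88 to -0.38, adjusted p = 0.00319), and PTH(1-36) from hPTH(1-31) by 0.83 (0.58 to 1.08, adjusted p = 0.000173). Has1, a hyaluronan synthase whose window is shown above, was at 4.69, 4.73 and 4.62 with hPTH(1-31) and at 3.66, 4.00 and 3.83 with hPTH(1-34), a difference of 0.85 (0.50 to 1.2, adjusted p = 0.00421). The arrays of these analogs did not overlap for Has1. Lgr5, named above, was higher with PTH(1-36) than with hPTH(1-34) by 0.41 (0.26 to 0.56, adjusted p = 0.00167).

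Other genes called between hPTH(1-31) and hPTH(1-34), nearer the threshold, were Slc2a4, a glucose transporter (0.66, 0.35 to 0.98, adjusted p = 0.0157 in limma), Pax2 (-0.67, -1.03 to -0.31, adjusted p = 0.0365) and the DNA glycosylase Ung (-0.65, -1.02 to -0.28, adjusted p = 0.0487). Their pooled contrasts were not called. These signals were low: over the intact pool Pax2 lay at 2.13 to 3.23, below the array medians, Slc2a4 at 3.6 to 4.61 and Ung at 3.3 to 4.57. Whether they exceed background was not tested. Saal1 and Ttll7 were higher with PTH(1-36) than with hPTH(1-34), by 0.74 and 0.60. Of 134 genes called in any pair of intact analogs, 48 were called in the pooled contrast, as were 19.4% of all genes.

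bPTH(7-34) at 1000 nM and hPTH(7-34) at 100 nM differ in dose and are given side by side without direct comparison. Plk2 was at 7.62, 7.33 and 7.54 with bPTH(7-34) and at 7.72, 7.65 and 7.74 with hPTH(7-34), where intact arrays began at 7.76. Tomm70a was at 7.98, 7.93 and 8.05 with bPTH(7-34) and at 8.31, 8.14 and 8.18 with hPTH(7-34), of which 8.31 and 8.18 lie within the range of the intact pool. Fas was at 7.34, 7.05 and 7.18 with bPTH(7-34) and at 7.44, 7.49 and 7.54 with hPTH(7-34), above every array of both pools. Over the small increases, the median of hPTH(7-34) minus the control pool was 0.04, over the small decreases 0.03 and over all genes 0.004. That pool includes bPTH(7-34) at 1000 nM, so these medians mix doses.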

How the data were processed

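RNA from 21 cultures (7 groups of 3) was measured on Affymetrix Mouse Gene 2.0 ST arrays. The deposited values are log2 signals for 41345 transcript clusters, made by the authors with Affymetrix Expression Console and RMA per the submitters' processing notes. The log base was taken from the range of the values (0.25 to 13.6), and tool versions are not given in the sources used here. Of the clusters, 23521 carried 1 gene symbol, 1814 several and 16010 none in the platform annotation. The cluster of highest mean over the 21 arrays stood for each gene, which left 22180 genes with no filter on signal.

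Limma 3.58.1 in R 4.3.3 (lmFit, eBayes) was fitted to 7 group means, with Benjamini-Hochberg adjustment over all genes, and over genes and 6 pairs for the comparison of analogs. Genes were called at an adjusted p under 0.05. The pooled contrast is the mean of the 3 intact groups minus the mean of the 3 control groups, and its error comes from the spread of arrays within groups. Replicates are described as biological and independently prepared in the labels. The replicate number was not used as a block. In their deviations, 1 of 63 pairs of same-numbered arrays correlated over 0.1, with a median of 0.034 against -0.013 for other pairs. Whether the numbers mark a shared preparation was not tested, and counts with a block are given below. The method was tested on simulated data.

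The gene lists, the comparison and the rules were chosen with earlier results of these data known. Genes were named by rule: the 10 highest and 10 lowest, the 15 small increases and 15 small decreases with the smallest adjusted p, up to 4 called members per list, a fixed panel of bone genes, 3 genes per pair and direction, and 6 per test among groups. Genes named otherwise are said to have been picked after their values were seen. Of those rule-named genes, the ones that carry each comparison are printed. Promoter sequences are from RefSeq (GRCm38.p6), and 16918 genes matched one by Entrez gene identifier. Alternatives covered scaling, filtering, gene summary, variance model, array weights, each group left out, each of 18 arrays left out, and a threshold of 0.01.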

Additional observations from a re-analysis of the deposited data

Results flagged for a closer look

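Each pool of 9 arrays was searched, gene by gene for the genes named here, for 1 array whose gap to the nearest other was over Dixon's 95% critical share of the pool's range. Of 324 such searches 18 found one, and chance alone gives about 1 in 20. In the intact pool, hPTH(1-31) replicate 3 was low for Bmp4 (6.82) and high for Dnaja2 (9.40), and hPTH(1-31) replicate 2 was low for Eif2b1 (6.27). hPTH(1-34) replicate 3 was low for Igf1 (10.02) and Saal1 (3.88), and hPTH(1-34) replicate 2 for Taf1b (5.90). PTH(1-36) replicate 1 was high for Tnpo2 (7.76), and PTH(1-36) replicate 2 low for Ube2d1 (7.74). In the control pool, bPTH(7-34) replicate 1 was high for Eif4e (8.82), Ptgs2 (6.97) and Ube2d1 (8.58), and bPTH(7-34) replicate 3 for Enah (8.34). bPTH(3-34) replicate 3 was low for Fos (4.34) and Ier5l (5.86), and bPTH(3-34) replicate 2 for Tnfrsf11b (6.15). Vehicle replicate 3 was low for Map2k1 (7.47) and Rrn3 (7.42), and vehicle replicate 1 for Noc4l (5.66).

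A few of the named genes were called between intact analogs, in limma with adjustment over genes and 6 pairs. As above, that adjustment holds over the 6 pairs together, so false calls can be more frequent among these. hPTH(1-31) minus hPTH(1-34) was 0.85 for Has1, 0.66 for Slc2a4, 0.54 for Hey1, -0.63 for Map2k6, -0.67 for Pax2 and -0.65 for Ung. PTH(1-36) minus hPTH(1-34) was -1.01 for Prg4, -0.76 for Cxcl14, 0.74 for Saal1, 0.60 for Ttll7, 0.50 for Hey1, 0.41 for both Lgr5 and Ttc30a1, and 0.35 for Jag1. PTH(1-36) minus hPTH(1-31) was 0.83 for Map2k6 and -0.70 for Prg4.

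Transcript clusters outside the gene comparisons also differed between the pools when all clusters were fitted together. Of 16010 clusters without a gene symbol, 533 (3.33%) were called, 307 higher and 226 lower, with changes of up to 13.4-fold. Of 1814 clusters with several symbols, 172 (9.48%) were called, 83 higher and 89 lower.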

How the results depend on the processing

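With vehicle as the only control, the pooled contrast called 2647 genes (1208 higher, 1439 lower) and the small-change class held 307, a setting with 3 control arrays instead of 9. Among genes above the median signal that class held 740, with fewer genes tested. With array weights, hPTH(1-31) differed from hPTH(1-34) in 47 genes. At a threshold of 0.01, hPTH(1-34), hPTH(1-31) and PTH(1-36) called 1128, 1122 and 925 genes against vehicle. At the same threshold hPTH(1-31) differed from hPTH(1-34) in 4 genes, PTH(1-36) from hPTH(1-34) in 8 and from hPTH(1-31) in 7, and bPTH(3-34) from hPTH(1-34) in 977, from hPTH(1-31) in 970 and from PTH(1-36) in 793. Leaving out 1 array at a time gave 3999 to 4279 pooled calls (1744 to 1833 higher, 2247 to 2471 lower) and 1332 to 1780 small changes. Against vehicle it gave 1421 to 1957 calls for hPTH(1-34), 1481 to 1957 for hPTH(1-31) and 1160 to 1615 for PTH(1-36). Between intact analogs it gave 23 to 48, 38 to 84 and 36 to 70, in the order of the pairs above, and against bPTH(3-34) 1176 to 1587, 1156 to 1574 and 940 to 1318. With vehicle alone, Myom1 turned from -0.27 to 0.069 (adjusted p = 0.83) and Ttc30a1 from 0.20 to -0.034 (adjusted p = 0.884); the cause was not tested for any of these. Treating each pool as 1 group of 9 arrays gave 4445 calls and 1481 small changes. With the replicate number as a block, the pooled contrast called 4687 genes, the small-change class held 1228 and hPTH(1-31) differed from hPTH(1-34) in 34. By deviations, 14 of 21 arrays correlated best with an array of their own number, a hint from the data and not from the design. Median centring and repeated quantile normalization moved the median difference of all genes to -0.02.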

Other observations

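Further gene groups are given here beside the 8.35% of all genes called higher and the 11.1% called lower. As above, these shares are a low background for lists of higher signal. Among amino acid and tRNA synthetase genes, 10 of 44 were called higher and 4 lower. Eprs, the glutamyl-prolyl-tRNA synthetase, lay at 10.32 to 10.57 with intact analogs and at 8.94 to 9.14 in controls (2.65-fold), and Slc7a5, an amino acid transporter, was 2.02-fold higher. Ddit4, an inhibitor of mTOR signalling, was 1.84-fold higher. In autophagy and lysosome genes, 4 of 56 (7.14%) were higher and 7 (12.5%) lower, near those shares. Wipi1, Ulk2 and Atg10, which act in forming the autophagosome, were 1.37-fold, 1.24-fold and 1.39-fold lower, and Wipi2 was 1.17-fold higher as a small change. In glycolysis and glucose uptake, 5 of 32 were higher and 2 lower, with the lactate transporter Slc16a1 3.71-fold, hexokinase Hk2 1.44-fold and the glucose transporter Slc2a1 1.32-fold higher. Of 38 genes of the tricarboxylic acid cycle and pyruvate use, 6 were higher and 9 lower, among them Pdp1, a phosphatase that activates pyruvate dehydrogenase (2.10-fold lower), and Idh1 (1.33-fold lower). The respiratory chain held 3 higher (4.29%) and 1 lower (1.43%) of 70, both below the shares of all genes, and 5 higher without hPTH(1-31) replicate 3. Mitochondrial ribosomal proteins held 9 higher (13%) and 4 lower (5.8%) of 69, with Mrps31 1.22-fold higher as a small change.

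Among Notch genes, 4 of 33 were higher and 5 lower: the ligand Jag1 lay at 7.00 to 7.59 against 8.38 to 8.56 (2.20-fold lower), the receptor Notch3 was 1.45-fold lower and the target Hey1 1.31-fold higher. Of 42 growth factors and their receptors, 8 were higher and 12 lower, with Pdgfrb 1.81-fold and Egfr 1.66-fold lower and Vegfa 1.65-fold higher. Of 46 interferon-stimulated genes, 4 (8.7%) were higher and 5 (10.9%) lower, near the shares of all genes, with a median of -0.05. Among the 4, Cxcl10, an interferon-induced chemokine, was 1.54-fold higher in the pool (6.18 to 6.99 against 5.82 to 6.40, adjusted p = 0.00301 in limma) although no single analog called it. Of 17 cartilage markers 3 were higher and 2 lower. Acan, aggrecan, was 1.32-fold higher and Sox9, the cartilage transcription factor, 1.26-fold lower, and both were small changes. Of 29 macrophage and osteoclast markers 3 (10.3%) were lower, near the share of all genes, among them Cx3cr1 (1.26-fold) and Mertk (1.18-fold).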
